A study of Homo sapiens with 2 samples.

Results

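Complex I of the respiratory chain, NADH:ubiquinone oxidoreductase, was examined at the level of its nuclear genes, taken as all protein-coding genes of the GENCODE 44 annotation whose symbol starts with NDUF. The annotation held 48 of these, and 47 had a protein-coding start site on the GRCh38 genome, out of 19479 protein-coding genes in all. They comprised 7 core subunits, 29 accessory subunits, 8 assembly factors, the NDUFA4 pair (NDUFA4 and NDUFA4L2) and 1 readthrough gene, NDUFC2-KCTD14. The remaining gene, NDUFB6, had no GRCh38 position in the annotation and was left out of all counts. The study sequenced 1 chromatin immunoprecipitation library made with an antibody against ING5, from untreated HepG2 cells, and 1 input DNA library of the same cells, made without antibody. HepG2 is an established line from a human liver cancer, and ING5 is a chromatin protein whose PHD finger binds the methylated tail of histone H3, and it works within histone acetyltransferase complexes. The aim stated for the experiment was to find the genes that ING5 acts on. The input has no peak list of its own and entered only as the control of peak calling, so no value has a replicate.

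Complex I takes electrons from NADH, passes them through a flavin and a chain of iron-sulphur clusters to ubiquinone, and couples this to the pumping of protons across the inner mitochondrial membrane. Its catalytic core is shared with bacteria and is encoded in part by mitochondrial DNA. The accessory subunits surround the core, and the assembly factors help to build the enzyme without staying in it. Liver cells are rich in mitochondria, and complex I is one of the main entry points of electrons into their respiratory chain.

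The ChIP library was 12416160 fragments deep and the input 9915170 fragments, and the authors' list held 8608 peaks, of which 8589 lay on chromosomes 1 to 22 and X. A gene is called bound below when the summit of a peak lay within 1000 bp of the start of any of its protein-coding transcripts, and its best peak is the most significant of these. Pileup is the number of fragments over a summit, and fold enrichment is the ratio of pileup to local background, with 1 added to each. Both are the authors' values for single peaks. The lowest local background in the list was 0.853 fragments, taken here as the genome-wide level. At that level the fold follows from the pileup alone, so genes with the same pileup have the same fold. None of 10 hepatocyte genes, among them ALB, APOA1 and HNF4A, was bound (exact binomial 95% interval up to 30.8%), and that interval holds the 30.2% of all protein-coding genes. A list of ING5 peaks does not measure expression, so this says nothing of whether those genes are active in these cells.

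ING5 peaks stood at most complex I genes, and the median height of these peaks was somewhat below that of all bound genes. Of the 47 genes, 29 were bound (61.7%, exact binomial 95% interval 46.4 to 75.5), against 5888 of all 19479 protein-coding genes (30.2%, 29.6 to 30.9). The 29 genes rested on 28 distinct peaks, since NDUFC2 and its readthrough shared 1. Assembly factors were bound at 7 of 8, core subunits at 5 of 7 and accessory subunits at 15 of 29. The median fold enrichment of the best peak was 6.47 over bound complex I genes and 7.01 over all bound genes. The median pileup was 11 fragments (quartiles 10 and 14), against 13 (11 and 16). Over all peaks of the list, at promoters or not, the medians were 6.47-fold and 12 fragments. With the list cut into 2 equal parts by significance, 14 of the 47 genes had a promoter peak in the upper part (29.8%), against 18.9% of all genes. Among the 1000 most significant peaks 1 of the 47 did (2.13%), against 4.60% of all genes. Intervals cover counting error only, and these shares describe 1 library without a test.

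**Figure D1:**
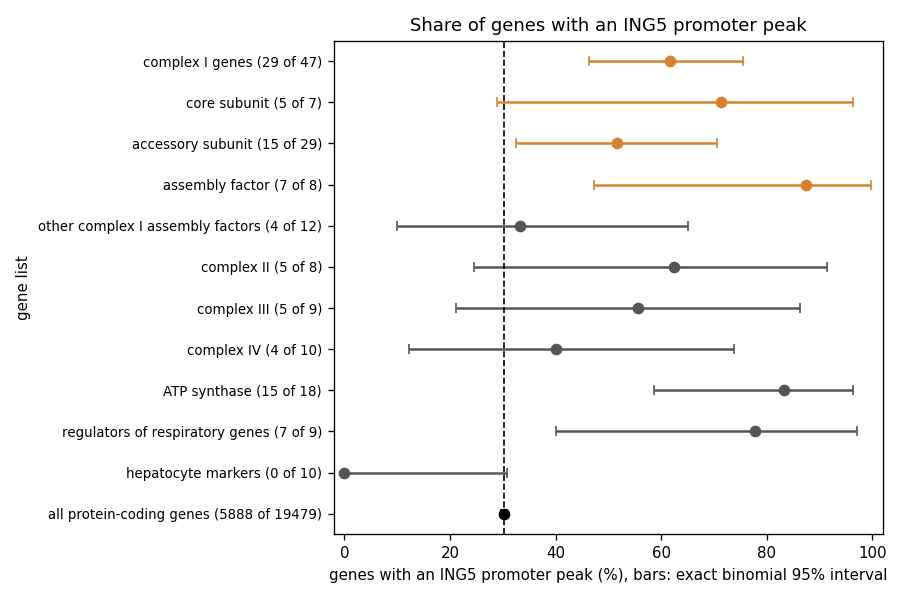
Percent of genes with an ING5 promoter peak in each gene list (points, with exact binomial 95% intervals as bars; the number bound and the list size stand beside each name). Complex I genes and their roles are in orange, other lists in grey and all protein-coding genes in black, with a dashed line at 30.2%; complex I lies at 61.7% and its assembly factors at 87.5%.

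NDUFS6, which encodes a zinc-binding accessory subunit of the NADH-oxidising part of the enzyme, had the tallest peak by far. Its summit held 44 fragments, 14.2-fold over a local background of 2.18 fragments, and the peak ranked 80 in the whole list. It covered 2020 bp at chr5:1800112-1802131 (GRCh38), with the summit in intron 1, 249 bp downstream of the start. The next complex I gene in rank had 23 fragments, so NDUFS6 stands apart from the other members in height. Its local background was above the genome-wide level, as was that of NDUFC2; the part of this in the heights was not tested. The peak also lay across the start of MRPL36, a mitochondrial ribosomal protein gene read in the other direction, whose start was 298 bp from the summit.

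NDUFC2, an accessory subunit of the membrane arm, shared its peak with NDUFC2-KCTD14, a readthrough transcript into the next gene. That peak held 23 fragments, 7.66-fold over a local background of 2.13, and spanned 1088 bp at chr11:78078891-78079978. NDUFA7, a subunit of the matrix arm, and NDUFB1, a small subunit of the membrane arm, followed with 16 fragments each, 9.17-fold over the genome-wide background. Their peaks lay at chr19:8321690-8322238 and chr14:92121708-92122551. No other member reached the rank of these 5 genes, which was 1293 for the last of them. The promoters of the 4 with an entry in the RefSeq promoter table (GRCh38.p14) are given because they carry the highest peaks of the complex. Each line holds the 250 bases before the RefSeq start, 5′ to 3′ on the strand of the gene, at chr5:1801157-1801406 (plus strand), chr11:78079863-78080112 (minus), chr19:8321376-8321625 (minus) and chr14:92121707-92121956 (minus). Capitals mark matches to the motifs described further on, on either strand.
NDUFS6: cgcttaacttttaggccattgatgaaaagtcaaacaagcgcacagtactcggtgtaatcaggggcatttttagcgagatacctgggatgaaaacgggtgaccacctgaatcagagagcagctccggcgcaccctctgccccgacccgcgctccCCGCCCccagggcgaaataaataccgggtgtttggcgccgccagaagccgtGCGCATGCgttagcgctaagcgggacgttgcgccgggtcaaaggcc
NDUFC2-KCTD14: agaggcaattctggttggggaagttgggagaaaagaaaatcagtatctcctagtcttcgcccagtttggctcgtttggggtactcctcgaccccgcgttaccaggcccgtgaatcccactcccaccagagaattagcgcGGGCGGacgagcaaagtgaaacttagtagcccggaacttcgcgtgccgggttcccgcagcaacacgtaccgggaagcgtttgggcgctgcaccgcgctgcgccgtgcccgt
NDUFA7: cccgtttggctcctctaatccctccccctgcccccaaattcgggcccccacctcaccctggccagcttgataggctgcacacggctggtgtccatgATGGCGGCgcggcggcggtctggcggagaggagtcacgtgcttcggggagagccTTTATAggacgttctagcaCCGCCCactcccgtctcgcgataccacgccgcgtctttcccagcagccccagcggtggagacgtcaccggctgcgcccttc
NDUFB1: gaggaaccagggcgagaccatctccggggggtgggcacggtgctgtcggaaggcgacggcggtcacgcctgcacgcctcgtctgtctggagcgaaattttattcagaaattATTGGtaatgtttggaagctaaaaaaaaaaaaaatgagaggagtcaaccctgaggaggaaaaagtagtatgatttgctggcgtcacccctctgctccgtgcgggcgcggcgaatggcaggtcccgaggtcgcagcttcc
The peak shared by NDUFC2 and its readthrough reached into the second sequence, with the summit 557 bp past the RefSeq start. That entry bears the readthrough symbol, but its start, 78079862, is the canonical start of NDUFC2. The canonical start of the readthrough is 78079773. The NDUFS6 sequence lay wholly inside its peak, and the summit was 257 bp past the RefSeq start. The NDUFB1 sequence lay inside its peak but for its last printed base, and the summit was 555 bp upstream of that start. The NDUFA7 sequence lay between 2 peaks that count for this gene, and the second of them, with 13 fragments, reached over its last bases.

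The core subunits were bound at 5 of 7 genes, and both unbound ones were NDUFV genes. NDUFS3, a subunit of the part of the matrix arm that leads to ubiquinone, had 12 fragments (7.01-fold) at chr11:47579180-47579503. NDUFS1, the large iron-sulphur protein, had 10 fragments (5.94-fold) at chr2:206158895-206159166. NDUFS7, which carries the last iron-sulphur cluster before ubiquinone, had 10 fragments (5.94-fold) at chr19:1383983-1384295. NDUFS8, which carries another pair of clusters, had 9 fragments (5.40-fold) at chr11:68031007-68031199. The peaks of these named genes all stood over the genome-wide background and had summits 54 to 341 bp downstream of a start. None was among the 1000 most significant peaks of the list, and of these named genes NDUFS3 alone was in its more significant part.

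NDUFV1, which binds NADH and the flavin, and NDUFV2, its iron-sulphur partner, had no peak near. The summit nearest to NDUFV1 was 100659 bp upstream of its start, and that nearest to NDUFV2 396057 bp upstream. Their promoters are shown for comparison with those of the bound genes, again as the 250 bases before the RefSeq start, at chr11:67606686-67606935 and chr18:9102449-9102698, both on the plus strand.
NDUFV1: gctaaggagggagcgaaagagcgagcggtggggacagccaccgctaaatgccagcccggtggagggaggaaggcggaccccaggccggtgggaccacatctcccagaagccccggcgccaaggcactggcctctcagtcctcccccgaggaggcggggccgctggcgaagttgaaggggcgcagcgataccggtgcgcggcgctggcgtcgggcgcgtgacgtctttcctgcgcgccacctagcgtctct
NDUFV2: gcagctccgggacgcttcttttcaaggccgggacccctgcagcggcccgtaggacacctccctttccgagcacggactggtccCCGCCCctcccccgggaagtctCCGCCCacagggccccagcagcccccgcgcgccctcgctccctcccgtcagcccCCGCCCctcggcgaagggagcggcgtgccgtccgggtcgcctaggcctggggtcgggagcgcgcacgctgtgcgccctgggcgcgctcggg
The CpG observed over expected of these promoters, over 250 bases before to 50 after the start, was 0.86 for NDUFV1 and 0.85 for NDUFV2. That lay within the range of the bound genes (0.59 to 1.10), so the 2 unbound core promoters were not poor in CpG. With 7 core genes, the 95% interval of the bound share ran from 29.0% to 96.3%.

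The accessory subunits were the most mixed class. Outside the NDUFB group and besides the genes named above, NDUFA2, a small subunit with a thioredoxin-like fold, had 14 fragments (8.09-fold) at chr5:140647233-140647643. NDUFA13, also known as the cell death protein GRIM-19, had 11 (6.47-fold) at chr19:19515806-19516137. NDUFA11 and NDUFV3 had 10 each (5.94-fold), at chr19:5903242-5903596 and chr21:42893703-42894010. NDUFA8, a subunit on the intermembrane side, had 9 (5.07-fold over a background of 0.974) at chr9:122159129-122159607. NDUFAB1, the mitochondrial acyl carrier protein, which also serves fatty acid synthesis, had 9 (5.40-fold) at chr16:23595698-23595889. All of these lay well below NDUFS6 and NDUFC2 in pileup, though the fold of NDUFA2 was above the 7.66 of NDUFC2.

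In the NDUFB group, subunits of the membrane arm, 6 of 10 placed genes were bound (60%, 26.2 to 87.8). That interval holds the 30.2% of all protein-coding genes. Besides NDUFB1, NDUFB4 had 14 fragments (8.09-fold) at chr3:120596346-120596776 and NDUFB8 had 13 (7.55-fold) at chr10:100529535-100529823. NDUFB11, an X-linked gene, had 11 (6.47-fold) at chrX:47144083-47144336. NDUFB10 had 10 (5.94-fold) at chr16:1959846-1960044. NDUFB9, which holds a copy of the acyl carrier protein in place, had 9 (5.40-fold) on chromosome 8. The unbound accessory genes were NDUFA1, NDUFA3, NDUFA5, NDUFA6, NDUFA9, NDUFA10, NDUFA12, NDUFB2, NDUFB3, NDUFB5, NDUFB7, NDUFC1, NDUFS4 and NDUFS5. They include NDUFS4, a gene mutated in Leigh syndrome, and NDUFA12, a late addition to the matrix arm.

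Assembly factors were bound in all cases but NDUFAF4. NDUFAF3, a partner of NDUFAF4 in building the quinone-binding part, had 15 fragments (8.63-fold) at chr3:49021086-49021325. Its summit lay 32 bp upstream of the nearest coding start, a noncanonical one, and 968 bp upstream of the canonical start. A second NDUFAF3 peak, with 12 fragments, had its summit 100 bp downstream of a start. NDUFAF8 had 13 (7.55-fold) at chr17:81239568-81240328, and its partner NDUFAF5, an enzyme that modifies NDUFS7, had 10 (4.88-fold over a background of 1.25) at chr20:13784756-13785196. NDUFAF7, a protein methyltransferase, had 12 (6.66-fold) at chr2:37231212-37231518. NDUFAF6 had 12 (7.01-fold) from 94894271 to 94894921 on chromosome 8. That summit lay 130184 bp from the canonical start of NDUFAF6 and 396 bp downstream of the start of CCNE2. NDUFAF2, which holds the place of NDUFA12 during assembly, had 10 (5.27-fold over a background of 1.09) at chr5:60945861-60946211. NDUFAF1 had the lowest best peak of all bound members, with 8 fragments (4.86-fold) at chr15:41402750-41402987. The range over the 7 was thus 8 to 15 fragments, against 9 to 44 over the bound accessory subunits. NDUFAF4 had no summit within 7545460 bp, the longest distance among the members.

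NDUFA4, now counted as a subunit of complex IV, had 10 fragments (5.42-fold over a background of 1.03) at chr7:10939550-10939801. Its paralogue NDUFA4L2, known as a gene induced by low oxygen, was unbound.

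**Figure D2:**
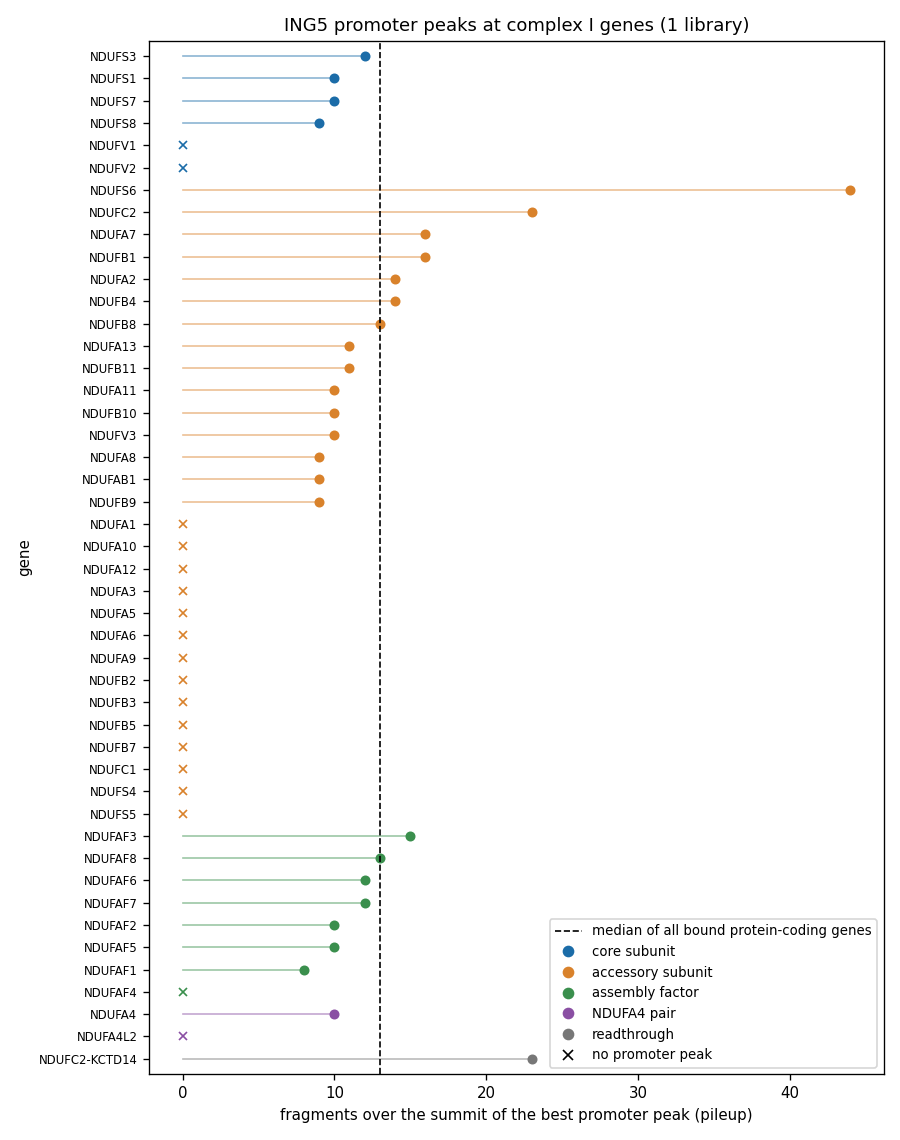
Fragments over the summit of the best ING5 promoter peak (x axis) for 46 of the 47 complex I genes (y axis), coloured by role; crosses at 0 mark genes with no promoter peak. The dashed line is the median of all bound protein-coding genes, 13 fragments; NDUFS6 stands at 44, NDUFC2 and its readthrough at 23, and the other bound genes between 8 and 16.

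The members fell clearly into genes with a peak and genes far from one. The bound gene nearest to the limit of 1000 bp was NDUFAF6, with its summit 962 bp upstream of a noncanonical start and 130184 bp from the canonical one. On the other side, the unbound genes nearest to the limit were NDUFC1 with 5572 bp, NDUFB7 with 5754 bp and NDUFA4L2 with 6713 bp. No member lay between, and a window of 3000 bp added none. The peak nearest to NDUFC1 held 19 fragments (9.74-fold) and lay in an intron of the gene. With noncoding transcripts counted as well, NDUFC1 was added, which made 30 bound genes (63.8%), against 30.9% of all genes; this setting was chosen after the data were seen. The peak nearest to NDUFB7, with 9 fragments (5.40-fold), also lay in an intron. The other unbound genes were further from any summit. The distance was 37358 bp for NDUFB5, 44405 bp for NDUFB3, 69220 bp for NDUFA12 and 71650 bp for NDUFA1. It was 141128 bp for NDUFA6, 153205 bp for NDUFS5, 189868 bp for NDUFA5 and 211917 bp for NDUFB2. It was longest, among the accessory genes, for NDUFA10 (344979 bp), NDUFS4 (570741 bp), NDUFA3 (1010892 bp) and NDUFA9 (1515842 bp). For NDUFB6, the nearest summit to the RefSeq start was 22636 bp away, so it would have been unbound. Of 63 annotated NDUF pseudogenes, 1 had a summit within 1000 bp of its start (1.59%, 0.0402 to 8.53). It was NDUFAF4P1, at 930 bp, and the same summit lay within 1000 bp of the starts of COPS2 and GALK2.

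Most summits lay inside the gene, some way past the start, as they did over all bound genes. Of the 29 bound members, 21 had the summit downstream of the nearest start (72.4%, 52.8 to 87.3), against 74.9% of all bound genes (73.8 to 76.0). The median distance downstream was 317 bp (quartiles 249 and 482), against 310 bp (172 and 490.5). The summit of the best peak lay within 100 bp of the nearest coding start for NDUFAF3 and NDUFS8 (6.90%), against 14.3% of all bound genes. In the canonical transcript, 17 summits fell in intron 1 (58.6%, against 50.6%), 1 in exon 1 (NDUFB9, 3.45%, against 20.9%) and 8 upstream of the gene (27.6%, against 20.3%). The other 3 were in exon 2 of NDUFA2 and in intron 2 of NDUFAF8 and NDUFS3. Peaks were narrow, with a median width of 324 bp against 390 bp. NDUFS6 and the shared NDUFC2 peak were the ones wider than 1000 bp. Of the best peaks of the 29 genes, 21 stood over the genome-wide background (72.4%, against 61.4% of all bound genes).

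**Figure D3:**
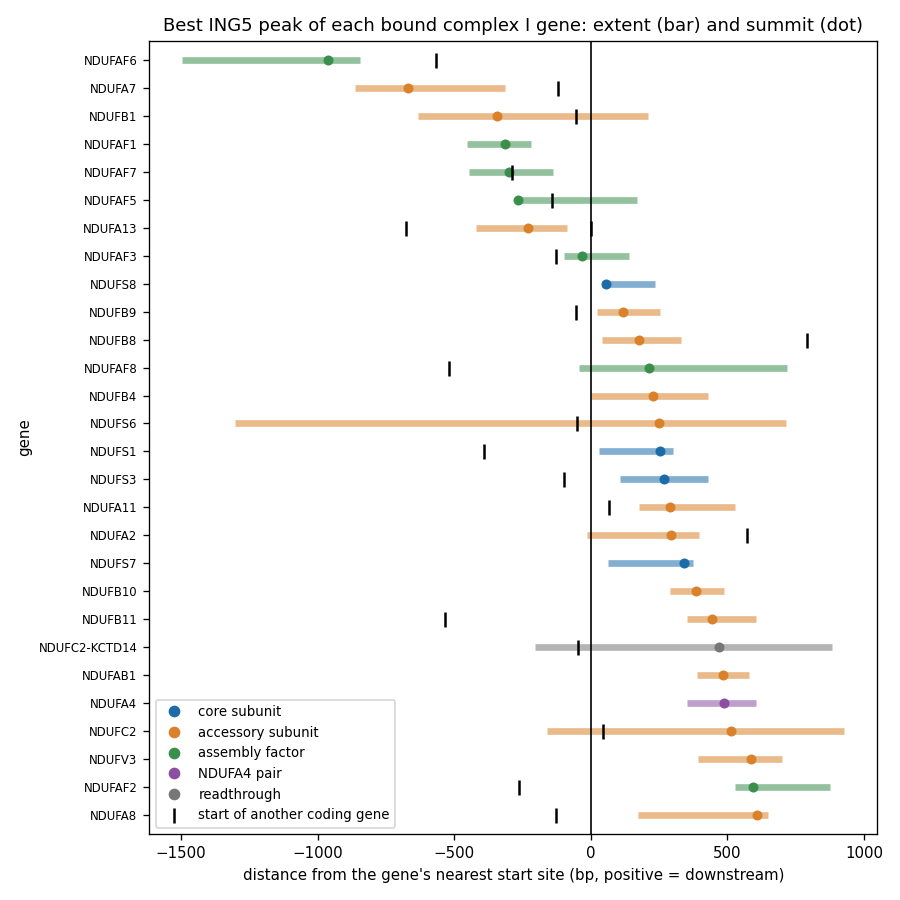
Position of the best ING5 peak of 28 of the 29 bound complex I genes (y axis) against the gene's own nearest protein-coding start, in bp along the direction of the gene (x axis). Bars give the extent of the peak, dots its summit and black ticks the starts of other protein-coding genes within 1000 bp of the summit; 20 dots lie downstream of 0 and 8 upstream.

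Complex I genes shared their promoters with other genes more often than all protein-coding genes did, a difference of gene layout that was not tested, and many of their peaks could be assigned to a neighbour as well. A start of another coding gene lay upstream, on the opposite strand and within 1000 bp, at 20 of the 47 genes (42.6%), against 11.9% of all protein-coding genes. Of those 20 genes 15 were bound (75%, 50.9 to 91.3), against 55.5% of all genes with such a partner (53.4 to 57.5). Of the 27 without one 14 were bound (51.9%, 31.9 to 71.3), against 26.8% (26.2 to 27.5). The 5 unbound genes with a partner were NDUFA1, NDUFA3, NDUFA9, NDUFB3 and NDUFB5. The summit of the best peak also lay within 1000 bp of another coding start at 20 of the 29 bound genes (69.0%), against 27.8% of all bound genes. The 20 include NDUFC2 and its readthrough, each counted as the other's neighbour through the peak they share.

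The 8 summits upstream of a member's own start were mostly downstream of a partner's. The NDUFA7 summit lay 670 bp upstream of NDUFA7 and 549 bp downstream of RPS28, a gene of the cytosolic ribosome. The NDUFB1 summit lay 344 bp upstream of NDUFB1 and 289 bp downstream of CPSF2, a gene of messenger RNA 3′ end processing. The NDUFAF6 summit lay 396 bp downstream of CCNE2, which encodes cyclin E2. Those of NDUFAF5 and NDUFAF7 lay 125 bp downstream of ESF1 and 9 bp downstream of CEBPZ. That makes 5 of 8 (62.5%), against 39.9% of all bound genes with an upstream summit. NDUFAF3 and its partner DALRD3 had the summit between their starts, as had NDUFA13 and TSSK6, and NDUFAF1 had no other coding start within 1000 bp.

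Where the summit lay downstream of a member's own start, a partner start upstream of that start was further off by layout alone. The distances to each start are given as description. For NDUFS1 the distances were 254 bp to its own start and 645 bp to that of EEF1B2, a translation elongation factor gene. For NDUFS3 they were 268 bp and 366 bp to KBTBD4, and for NDUFB9 118 bp and 174 bp to TATDN1. For NDUFA2 they were close, 292 bp and 280 bp to IK, and the summit lay downstream of both starts. When each peak counted only for the coding gene with the nearest start, 23 of the 47 complex I genes remained bound (48.9%), against 27.0% of all genes. The 6 lost were NDUFA2, NDUFA11, NDUFAF5, NDUFAF6, NDUFB1 and NDUFC2; this setting was chosen after the data were seen. NDUFC2 was lost to its own readthrough and NDUFA11 to an unnamed coding gene. NDUFA7 and NDUFAF7 stayed through a second peak, 72 bp and 113 bp downstream of their own starts, with 13 and 11 fragments. A second promoter peak was also found at NDUFA13, NDUFAF3 and NDUFS1, which makes 5 of 29 (17.2%), against 20.9% of all bound genes.

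Promoter sequence from the RefSeq table was at hand for 39 of the 47 genes (83.0%) and for 15175 of all protein-coding genes (77.9%), of which 32.3% were bound; shares below are over these. Genes with no entry under their own symbol included NDUFA4, NDUFA4L2, NDUFAF6, NDUFB5, NDUFB9, NDUFC2 and NDUFS5. The entry of NDUFC2-KCTD14 begins at the canonical start of NDUFC2. The median CpG observed over expected was 0.87 at 24 bound members (0.59 to 1.10) and 0.82 at 15 unbound members (0.57 to 0.99). Over all genes it was 0.88 at bound and 0.70 at unbound ones. All promoters were split by this measure into 4 classes of equal size. No member fell in the lowest class (up to 0.45), where 5.43% of genes were bound. In the second class 7 of 13 members were bound (53.8%, 25.1 to 80.8), against 30.0% of all genes. In the third, from 0.78 to 0.92, 7 of 15 were bound (46.7%, 21.3 to 73.4), against 42.3%. In the highest class 10 of 11 were bound (90.9%, 58.7 to 99.8), against 51.5% (49.9 to 53.1). NDUFA3, at 0.99, was the unbound gene in that class, and NDUFS6, at 1.10, had the highest value of any member.

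**Figure D4:**
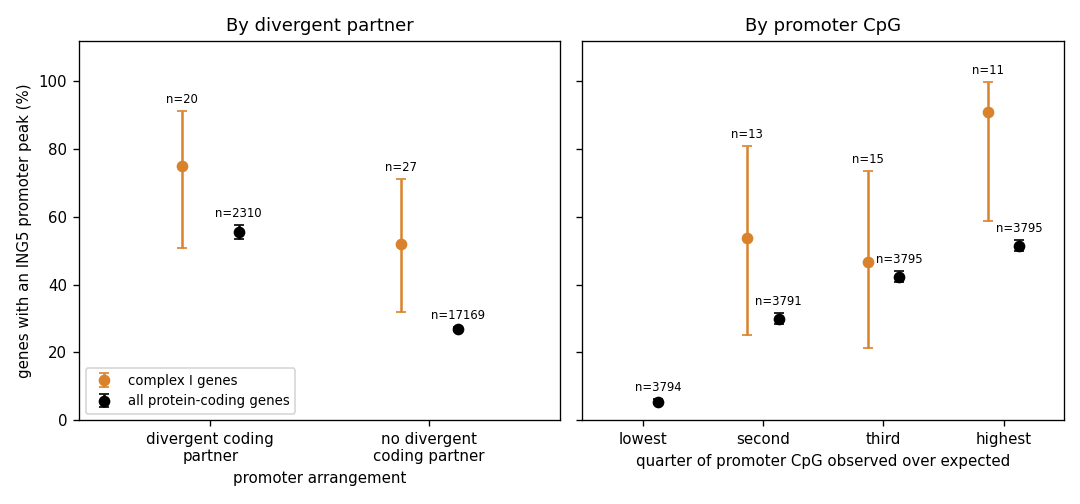
Percent of genes with an ING5 promoter peak (y axis, points with exact binomial 95% intervals) by presence of a divergent coding partner within 1000 bp (left) and by class of promoter CpG observed over expected, 4 classes of equal size from low to high (right), for complex I genes in orange and all protein-coding genes in black, with the number of genes above each point. Complex I points lie above those of all genes in each class that holds members; in the third CpG class the 2 values are 46.7% and 42.3%, and no complex I gene is in the lowest.

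Motifs were searched on both strands in the 300 bases of each promoter. The NRF1 motif, of a factor long tied to respiratory genes, was searched as GCATGCGC. It stood in 8 of 39 complex I promoters (20.5%), against 4.38% of all promoters and 6.34% of those of all bound genes. It was about as frequent at bound members, 5 of 24 (20.8%: NDUFA8, NDUFAF5, NDUFB4, NDUFS6 and NDUFS7), as at unbound ones, 3 of 15 (20%: NDUFA5, NDUFA6 and NDUFAF4). The core of the YY1 motif, ATGGCGGC, stood in 8 of 24 bound members (33.3%) and 2 of 15 unbound ones (13.3%), against 4.88% of all promoters. Over all genes this core stood in 8.28% of bound and 3.26% of unbound promoters. The bound members with it were NDUFA7, NDUFA13, NDUFAF8, NDUFB11, NDUFS1, NDUFS3, NDUFS6 and NDUFS8. A longer form of the YY1 motif, which contains that core, was present in 1 of 24 bound members (4.17%, NDUFAF8) and 2 of 15 unbound ones (13.3%, NDUFA9 and NDUFS4), against 1.52% of all promoters.

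Over all 39 complex I promoters the remaining motifs were nearer to the background, with the CRE motif at 5.13% against 2.75%. The GC box GGGCGG was present in 17 of 24 bound members (70.8%) and 9 of 15 unbound ones (60%), against 61.9% of all promoters. The ETS motif CCGGAAG was in 4 of 24 (16.7%) and 3 of 15 (20%), against 14.8%. The CCAAT box, searched by those letters, was in 8 of 24 (33.3%) and 3 of 15 (20%), against 36.5%. The TATA box TATAAA was in 2 of 24 (8.33%) and 1 of 15 (6.67%), against 9.37%. The CRE motif TGACGTCA was in 0 of 24 and in 2 of 15 (13.3%, NDUFA10 and NDUFB2), against 2.75%. The ZNF143 motif was in 1 of 24 (NDUFB10) and 0 of 15, against 1.71%. At the promoters of all bound genes the shares were 76.7% for the GC box, 22.4% for ETS and 36.7% for CCAAT. They were 4.81% for TATA, 3.53% for CRE and 2.53% for ZNF143. In the NDUFS6 promoter printed above, the capitals are a GC box and an NRF1 match, each on the strand opposite to the gene. In NDUFA7 they are a YY1 core on the strand of the gene and a TATA box and a GC box on the opposite strand. The start of RPS28, which is read on that opposite strand, lay within the printed NDUFA7 sequence. In NDUFB1 the capitals are a CCAAT box on the opposite strand. NDUFV1 had no match and NDUFV2 had 3 GC boxes, all on the opposite strand. A match is a run of letters and no evidence of binding by the factor.

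The other lists of respiratory genes ranged from 33.3% to 83.3% bound. Lowest were the assembly factors of complex I outside the NDUF family, of which 4 of 12 were bound (33.3%, 9.92 to 65.1), close to the 30.2% of all protein-coding genes; of the NDUFAF genes 7 of 8 were bound. The 4 were TMEM70 with 22 fragments (9.92-fold), TIMMDC1 with 21 (9.68-fold), NUBPL with 13 (7.55-fold), and COA1. ACAD9, ECSIT and TMEM126B, which form an assembly complex with NDUFAF1, were unbound. The counts for the other complexes stand against the same 30.2%. For complex II, which feeds electrons from succinate, 5 of 8 genes were bound (62.5%, 24.5 to 91.5), led by SDHA with 40 fragments (9.93-fold), SDHAF2 with 15 and SDHC with 11. For complex III 5 of 9 were bound (55.6%, 21.2 to 86.3), led by UQCRH with 24 fragments (13.5-fold), UQCRC1 with 21 and UQCR11 with 17. The UQCRH summit stood at -997 bp from its start (minus is upstream), close to the limit of 1000 bp. For complex IV 4 of 10 were bound (40%, 12.2 to 73.8), led by COX5A with 21 (11.3-fold), COX4I1 with 16 and COX8A with 13. For ATP synthase 15 of 18 were bound (83.3%, 58.6 to 96.4), led by ATP5F1E with 26 (14.5-fold), ATP5F1B with 20 and ATP5F1D with 16.

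Among transcriptional regulators of respiratory genes 7 of 9 were bound (77.8%, 40.0 to 97.2), against 30.2% of all protein-coding genes. YY1 had 23 fragments (12.9-fold), GABPB1, a subunit of an ETS family factor, 15 (8.63-fold), and NRF1 14 (8.09-fold). PPARGC1A and TFAM, a coactivator of mitochondrial biogenesis and a factor of mitochondrial DNA transcription, were unbound. The median fold of the best peak was 6.47 at complex I genes, 6.19 at complex II, 9.71 at complex III, 8.36 at complex IV and 7.55 at ATP synthase. Differences between these lists were not tested.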

How the data were processed

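Peaks were called with MACS2 2.1.1.20160309 at a p cutoff of 1e-05 with the input as control, per the file headers. The submitters' processing notes list fastp 0.19.6, Bowtie2 and deepTools. In the deposited list pileup is a coverage signal in fragments, significance is −log10 p, and enrichment is given as a ratio on a linear scale. Peaks were ranked by −log10 p.

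The labels name GRCh37, but 6242 of 8589 summits (72.7%) lay within 1000 bp of a coding start at its GRCh38 position and 821 (9.56%) at its GRCh37 position. GRCh38 positions came from the original exon positions recorded in GENCODE 44. Local background was recovered from pileup and fold, with a tolerance of 0.001 fragments for the genome-wide level. Divergent partners were sought from the canonical start. Promoter sequence came from RefSeq, 250 bp before to 50 bp after the start.

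Members are named with their best peak or the distance to the nearest one, except 1 that is counted but not reported here by name, and the other lists with their most significant ones. The members and lists were chosen with earlier results of these data known. The join of peaks to genes was tested on simulated data. Computation used Python 3.11.15, pandas 2.3.3 and SciPy 1.17.1. With 1 library per group nothing was tested for significance.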

Additional observations from a re-analysis of the deposited data

How the results depend on the processing

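No paired analysis was possible because each group has 1 library. With the list cut into 2 equal parts by significance, the upper part held 14 complex I genes in place of 29 (2 core, 7 accessory, 4 assembly), with a median fold of 7.66 and a median pileup of 14. In the part with the higher fold, 15 were bound (2, 8 and 4), also with 7.66 and 14; against these stood 18.9% and 19.0% of all genes. Among the 1000 most significant peaks 1 was bound, the accessory gene NDUFS6 (0 core, 1 accessory, 0 assembly), so the medians there are its own, 14.2-fold and 44 fragments, and the downstream share is 100%. These settings keep fewer and taller peaks by construction. A window of 200 bp left 6 (12.8% against 10.9%, with 1 core, 3 accessory and 2 assembly), since it drops every summit further off. The first quartile of the downstream distances of best peaks was 249 bp at bound members and 172 bp over all bound genes. Why the share of members came nearer to that of all genes was not tested. Peaks at the genome-wide background left 4 assembly factors in place of 7 and 21 of the 47 genes (44.7% against 19.3%). A window of 500 bp gave 24 bound genes (51.1%, against 23.8% of all genes), with 5 core, 12 accessory and 5 assembly. A window of 3000 bp and any overlap gave 29 each (61.7%, against 32.2% and 30.8%). Canonical transcripts gave 28 (59.6%, against 27.9%), with 6 assembly factors in place of 7. The nearest start only gave 23 (48.9%, against 27.0%) and all transcripts gave 30 (63.8%, against 30.9%). These last 2 settings were chosen after the data were seen. The difference in median CpG between bound and unbound members was 0.05, and 0.02 to 0.05 over its 3 alternatives. A count of 7 fragments was the lowest that made a peak, so weaker binding at the unbound genes was not detectable at this depth.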
